A study of Mus musculus with 4 samples.

Results

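The Groucho/Tle genes encode a small family of transcriptional corepressors, and their transcripts were compared in lineage-negative bone marrow, which is rich in stem and progenitor cells, of mice with and without Mtg16 (symbol Cbfa2t3). The family was taken by name as Tle1, Tle2, Tle3, Tle4, Tle5 (also called Aes) and Tle6, 6 genes in all. Probes were those annotated with a member's symbol alone, and 1 probe per gene was selected on the highest mean signal over the 4 arrays. Tle2, Tle3, Tle4, Tle5 and Tle6 each had 1 such probe, so 5 members were measured, out of 13840 genes with a probe, and Tle1 was not analysed here. All 5 lay in the brighter 50% of probes on which 8445 genes were tested. Tle2 was the nearest to that limit, with a geometric mean of 463 signal units over the arrays against a limit of 417. The family was picked with its values in these data known, Tle6 among the largest differences, so the differences below are a description of these arrays.

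Each sample pooled femur and tibia marrow of 4 females, 8 to 12 weeks of age, and cells carrying markers of mature lineages were removed on magnetic columns. Wild-type mice were C57BL/6, and Mtg16 null mice came from an N4 backcross into C57BL/6. Loss of Mtg16 and any difference in strain background between the groups therefore cannot be told apart in these arrays. There were 2 single-colour arrays per genotype, and each of 2 array lots held 1 array of each genotype. Nothing in the labels says whether replicate arrays came from separate pools, so p-values measure only the spread between these arrays, which may be technical.

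Groucho/Tle proteins do not bind DNA themselves. Sequence-specific factors, among them the Runx proteins, the Hes and Hey repressors, TCF and LEF factors and Pax5, recruit them. Many factors, though not all, do so through short peptide motifs that dock on a C-terminal WD40 propeller. An N-terminal glutamine-rich domain forms tetramers, and histone deacetylases are brought to the gene. Tle1 to Tle4 are the full-length members, Tle5 is a short protein without the propeller, and Tle6 is a divergent member best known from the subcortical maternal complex of the oocyte. Mtg16 belongs to another corepressor family, ETO, whose members are also recruited by DNA-binding factors and work with deacetylases.

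The arrays had been brought to a common distribution before deposit, with a median of 470 signal units on each. The Cbfa2t3 probe read 80854 and 100256 units on wild-type arrays 1 and 2 and 95520 and 118572 on null arrays 1 and 2. Where this probe lies relative to the deletion is unknown here, so it checks the genotype labels in neither direction. Of 10 markers of stem and multipotent cells, 7 had a probe and 6 were in the brighter 50%, and no marker read 0, since the lowest deposited value is 28.2 units. Cell type markers differed between the genotypes. Of 11 late neutrophil markers, 11 were at least 2-fold lower in each lot, against 2.20% of all genes tested, and their summed signal was 1369470 to 1485620 units in wild type and 148105 to 158427 in null arrays. Of 8 early granulocyte markers, 6 were higher by at least 2-fold in both lots, against 3.26% of all genes, with sums of 1604550 to 1693180 and 3465700 to 4118900 units. Of 9 tested erythroid markers, 4 were at least 2-fold lower in each lot, and they summed to 829835 to 990933 units in wild type and 544954 to 617013 in null arrays. Some markers of several other cell types were higher in the null arrays, as Tle6 was. By the 2-fold rule these were 2 of 6 stem cell markers (sums of 83700 to 85541 and 113033 to 117167 units), 2 of 5 monocyte markers (84387 to 115982 and 250564 to 277089) and 2 of 4 B lineage markers (17665 to 24285 and 39547 to 46781). Ms4a1, a B lineage marker below the brighter 50% and so outside that count and sum, went the other way. It read 1444 and 1767 units in wild type and 68.0 and 143 in null arrays. Of 6 megakaryocyte markers 1 was at least 2-fold higher in both lots (sums of 476405 to 478314 and 798745 to 915354 units), while Vwf was lower (log2 difference -0.88). Of 6 mast cell, basophil and eosinophil markers 2 were, Prg2 and Epx (sums of all 6, 347931 to 355740 and 596167 to 673739). The other 4, Cpa3, Mcpt8, Fcer1a and Ms4a2, were lower, and the median log2 difference of this list was -0.57. T and natural killer cell markers gave 1 of 3, dendritic cell markers 1 of 5, and stroma with endothelium 0 of 6. The part of cell composition in the values of the Tle genes was not tested, and in such bulk RNA a different number of cells and a different amount of RNA per cell cannot be told apart.

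Tle6 was the member with a large difference. Its probe read 510 and 417 signal units on wild-type arrays 1 and 2, and 1979 and 2085 units on null arrays 1 and 2. Both null arrays lay above both wild-type arrays, and the spread within a genotype was small beside the gap. The means were 464 ± 66.2 units in wild type and 2032 ± 75.2 in null arrays (SD, n = 2). On the log2 scale the null arrays were 4.40-fold higher. The log2 difference was 1.95 in lot 1, 2.32 in lot 2 and 2.14 in all (SE 0.20, 95% interval 1.60 to 2.68). With limma the adjusted p over all 8445 genes was 0.0744, or 0.113 with the array lot as a block, so Tle6 did not pass at 0.05. A two-sided exact permutation test of 2 arrays against 2 cannot give less than 0.333, the value obtained for Tle6. An upward log2 difference of at least this size was seen in 22 of the 8445 genes, or 0.261%, Tle6 among them. Larger downward differences, such as -5.41 for Ltf, are outside this count.

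The wild-type signals of Tle6, 510 and 417 units, lay near the median of each array, 470 units. Probes of 5 Y-linked genes, which female mice lack, read 94.5 to 362 units over the 4 arrays, and the wild-type signals of Tle6 stood only just above that range. The null signals stood well above it. No detection calls were used here, so how much of the wild-type signal is background is not known.

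**Figure D1:**
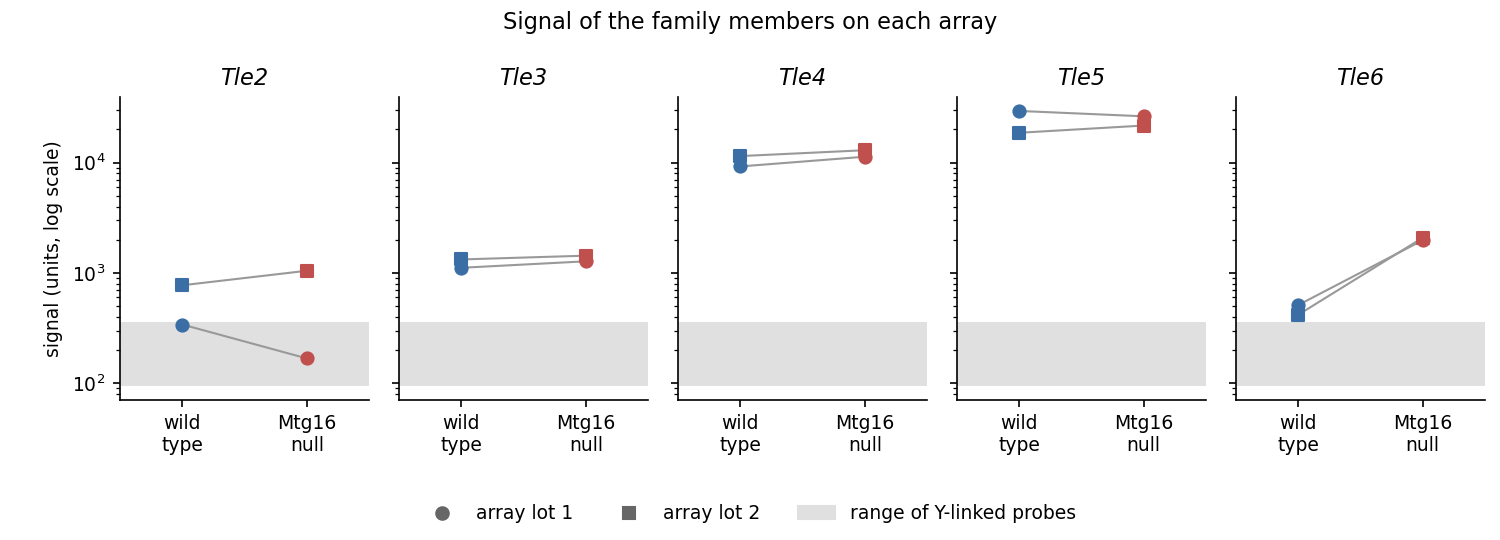
Signal of the 5 measured members on each array, on a log scale; circles are lot 1, squares lot 2, lines join the arrays of a lot, and the grey band is the range of the Y-linked probes, 94.5 to 362 units. Tle6 is higher on both null arrays (1979 and 2085 units) than on both wild-type arrays (510 and 417), while the genotypes overlap for the other members.

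Tle6 has 2 start windows in RefSeq (GRCm38.p6, minus strand), and the gene beside it, Tle2, has 1. The 250 bases before each start are shown because Tle6 and Tle2 are adjacent and differed in their values. Capitals mark the E-box CANNTG, searched on both strands, the core sequence to which basic helix-loop-helix factors such as the E proteins bind. The windows are chr10:81600901-81601150 and chr10:81597368-81597617 for Tle6 and chr10:81575037-81575286, plus strand, for Tle2.
Tle6 window 1: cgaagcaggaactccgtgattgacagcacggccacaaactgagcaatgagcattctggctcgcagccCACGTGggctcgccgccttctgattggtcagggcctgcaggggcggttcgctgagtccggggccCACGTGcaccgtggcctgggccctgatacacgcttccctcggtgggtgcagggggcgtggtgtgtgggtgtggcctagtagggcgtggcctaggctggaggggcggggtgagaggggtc
Tle6 window 2: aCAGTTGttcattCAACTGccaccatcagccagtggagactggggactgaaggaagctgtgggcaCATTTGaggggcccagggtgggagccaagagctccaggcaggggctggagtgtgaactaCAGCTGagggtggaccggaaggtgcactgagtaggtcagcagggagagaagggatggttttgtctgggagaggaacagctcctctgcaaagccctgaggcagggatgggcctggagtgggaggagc
Tle2: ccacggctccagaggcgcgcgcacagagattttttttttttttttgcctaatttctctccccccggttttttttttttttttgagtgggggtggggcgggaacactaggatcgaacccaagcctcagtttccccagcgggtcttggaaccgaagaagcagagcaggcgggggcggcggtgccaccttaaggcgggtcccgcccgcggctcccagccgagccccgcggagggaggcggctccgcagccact
Tle6 window 1 held 2 E-boxes, both of the form CACGTG, beginning 183 and 119 bases before the start. Window 2 held 4, none of them CACGTG, and the Tle2 window held 0. At least 1 CANNTG was present in 66.2% of 32851 windows of this length, and CACGTG, which is one of its forms, in 6.02%. The Tle3 window and the first of 2 Tle4 windows each held 1 CACGTG as well, and the Tle1 window and the second Tle4 window held no CANNTG. The Runx core TGTGGT (14% of all windows), GATAA (22.6%) and CTTTGA (13.8%), all searched on both strands, matched none of the member windows. A match describes the letters of a window and is no evidence of binding. The RefSeq table used here held windows for 5 of the 6 members, and Tle5 had none in it.

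Of the full-length members, Tle4 and Tle3 were slightly higher in the null array of each lot. Tle4, a corepressor that acts with Pax5 in the B lineage, read 9236 and 11464 units on the wild-type arrays and 11312 and 12958 on the null arrays. The genotypes overlapped, since wild-type array 2 lay above null array 1. The log2 difference was 0.23 (SE 0.21, 95% interval -0.34 to 0.81, limma adjusted p = 0.683), with 0.29 in lot 1 and 0.18 in lot 2.

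Tle3, another full-length corepressor, read 1112 and 1324 units on wild-type arrays and 1274 and 1433 on null arrays, which again overlapped. Its difference was 0.15 (SE 0.20, 95% interval -0.38 to 0.69, limma adjusted p = 0.786), from 0.20 in lot 1 and 0.11 in lot 2.

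Tle2 was not resolved. Its probe read 340 and 772 units on wild-type arrays and 168 and 1045 on null arrays, so the lot 1 arrays of both genotypes read inside the Y-linked probe range and the lot 2 arrays did not. The differences of the lots had opposite signs, -1.02 in lot 1 and 0.44 in lot 2, as they did for 29.4% of all genes tested. The log2 difference of -0.29 (SE 1.02, 95% interval -3.10 to 2.52, limma adjusted p = 0.932) turned to 0.30 without wild-type array 2 and to 1.03 without null array 1. Leaving out wild-type array 1 gave -0.88, and leaving out null array 2 gave -1.61.

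Tle5, the short member that can oppose the full-length proteins by forming complexes without the propeller, had nearly the same mean in both genotypes. It read 29426 and 18655 units on wild-type arrays and 26307 and 21699 on null arrays, means of 24041 ± 7617 and 24003 ± 3258 units (SD, n = 2). The null arrays lay between the wild-type arrays. The log2 difference was 0.03 (SE 0.30, 95% interval -0.79 to 0.85, limma adjusted p = 0.980), with -0.16 in lot 1 and 0.22 in lot 2. Its sign turned without wild-type array 2 (-0.30) or null array 1 (-0.11), and stayed positive when wild-type array 1 (0.36) or null array 2 (0.17) was left out.

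Over the family, the limma test gave 0 of 5 members an adjusted p under 0.05, against 0.118% of all 8445 genes (10 genes, all lower in the null arrays), and 1 of 5, Tle6, had an unadjusted p under 0.05, against 16.5% of all genes. One member, Tle6, was at least 2-fold higher in both lots (3.26% of all genes) and had null arrays that did not overlap the wild-type arrays from above (22.6%). Since Tle6 was known to be high when the family was picked, these counts of 1 in 5 carry no weight as evidence on the family. The median log2 difference of the 5 members was 0.15, against -0.02 over all genes tested. With a variance trend in the limma fit, Tle6 passed (adjusted p = 0.0436) and 295 genes did in all. With an array left out, its adjusted p ran from 0.137 to 0.412.

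**Figure D2:**
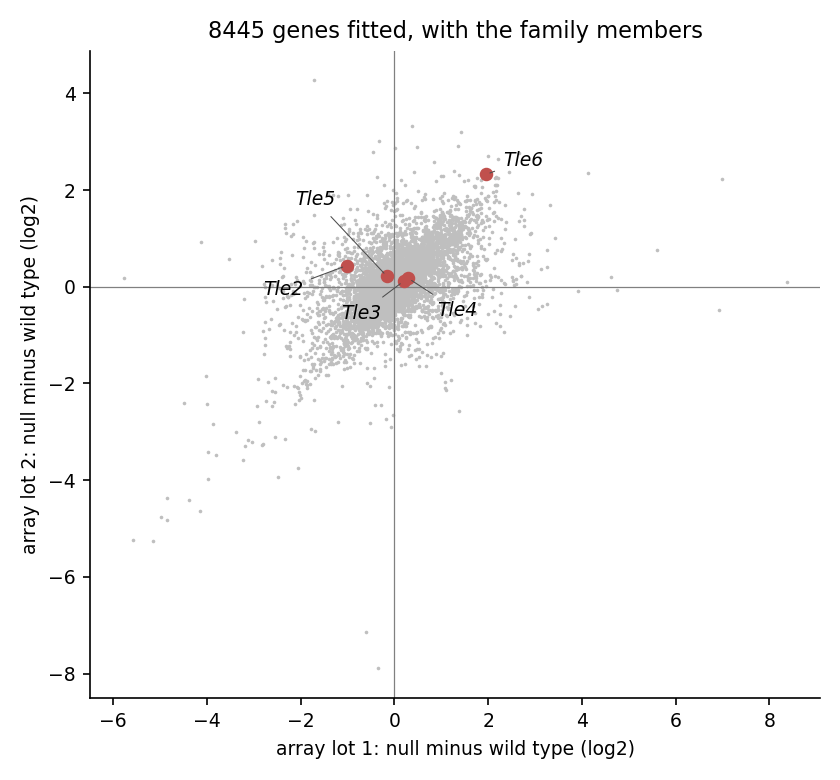
Log2 difference of null minus wild type in array lot 1 (horizontal) and lot 2 (vertical) for the 8445 genes tested (grey) and the 5 members (red). Tle6 stands at 1.95 and 2.32, Tle3, Tle4 and Tle5 lie in the dense centre, and Tle2 has opposite signs in the lots (-1.02 and 0.44).

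Most members differed more between array lots than between genotypes. Whether the lots also differed in pool or preparation is not stated, so these cannot be told apart from the lot. Tle2 was higher in lot 2 in both genotypes, by 1.18 in wild type and 2.64 in the null on the log2 scale. Tle5 went the other way, with lot 2 minus lot 1 at -0.66 in wild type and -0.28 in the null. Tle4 was higher in lot 2 by 0.31 and 0.20, and Tle3 by 0.25 and 0.17. For Tle6 the lots differed by -0.29 in wild type and 0.08 in the null, far less than its genotype difference of 2.14. The mean lot difference was larger in size than the genotype difference for Tle2, Tle3, Tle4 and Tle5, 4 of 5 members, and for 48.2% of all genes tested. Lot differences had the same sign in both genotypes for these 4, as for 71.6% of all genes.

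Tle5, Tle2 and Tle6 follow one another on mouse chromosome 10 in the RefSeq gene order, with no other protein-coding gene between them, whereas Tle1, Tle3 and Tle4 lie on chromosomes 4, 9 and 19. The genes around Tle6 had smaller differences than Tle6. Sirt6, a deacetylase gene on its other side, read 28828 and 35141 units in wild type and 31186 and 31863 in null arrays, with a log2 difference of -0.01. Ankrd24, beyond Sirt6 and below the brighter 50%, read 324 and 188 units in wild type and 144 and 114 in null arrays, all inside the Y-linked probe range. On the side of Tle5, the G protein alpha subunit genes Gna11 and Gna15 had differences of 0.09 and 0.56. The sphingosine phosphate receptor gene S1pr4 had one of 0.38, with -0.04 in lot 1 and 0.80 in lot 2. Gna15 was the only one of the 4 tested neighbours of Tle6 outside the family whose genotypes did not overlap (16472 and 10382 against 20320 and 18269 units), an excess seen in 22.6% of all genes. By limma, 0 of these 4 neighbours had an adjusted p under 0.05 (0.118% of all genes), and 0 an unadjusted one (16.5%).

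**Figure D3:**
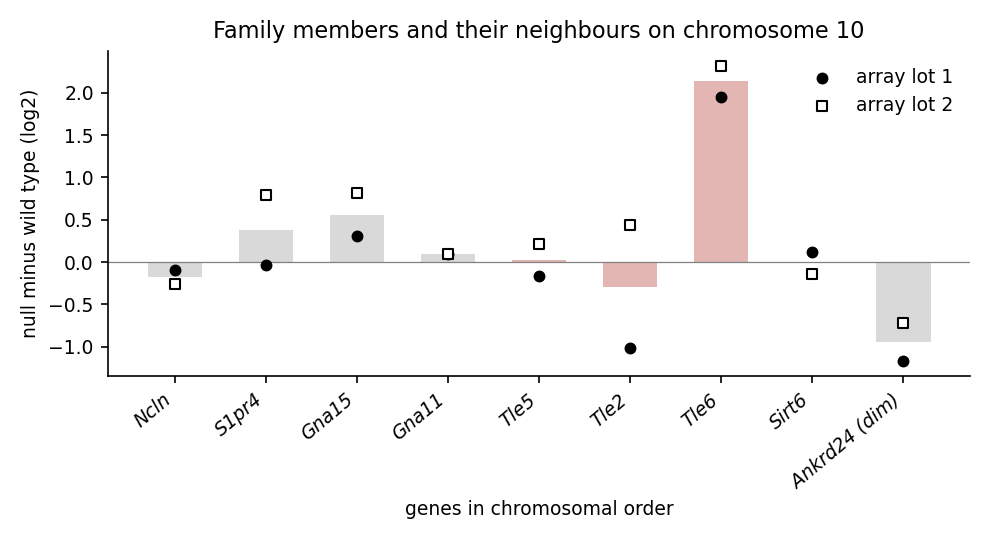
Log2 difference of null minus wild type for Tle5, Tle2, Tle6 (pink) and neighbouring protein-coding genes with a probe (grey), in chromosomal order; bars are the difference over both lots, circles lot 1 and squares lot 2, and dim marks a gene below the brighter 50%. Tle6 (2.14) stands between Tle2 (-0.29) and Sirt6 (-0.01).

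The genes with the pattern most like that of Tle6, by Euclidean distance between log2 values over the 4 arrays after centring each gene on its mean, were Hivep3, Ms4a3, Ppic, Prg2 and Elane. Their distances were 0.15, 0.22, 0.25, 0.26 and 0.27 on the log2 scale. Hivep3, a zinc finger gene, read 801 and 699 units in wild type and 3543 and 3340 in null arrays. Ms4a3, which encodes a membrane protein of myeloid progenitors, and Elane, the neutrophil elastase gene, are both on the early granulocyte list, with log2 differences of 2.21 and 2.23. Prg2, the major basic protein gene of eosinophils, had a difference of 2.13, and Ppic, a prolyl isomerase gene, one of 2.14. The likeness rests on 4 arrays that all the genes share and is a description.

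**Figure D4:**
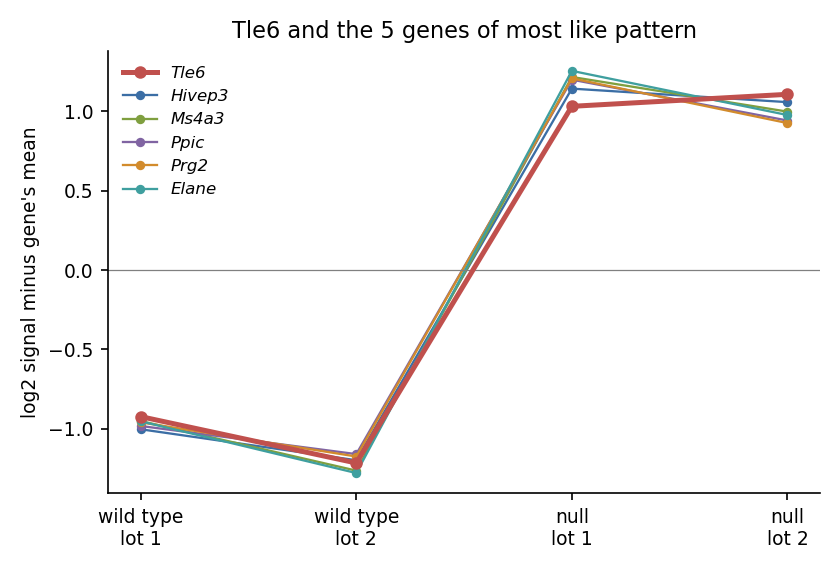
Log2 signal of Tle6 (thick red) and of the 5 genes of most like pattern on each array, each minus the gene's own mean over the 4 arrays. All 6 are low on both wild-type arrays and high on both null arrays, and the 5 genes lie within 0.27 of Tle6 in distance.

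Of genes that act with Groucho proteins or belong to related complexes (the ETO complex and the maternal complex of the oocyte), listed from general knowledge, 83 were named, 58 had a probe and 35 were in the brighter 50%. By limma, 0 of the 35 reached an adjusted p under 0.05, while 7 were higher and 0 lower at an unadjusted p under 0.05, against 9.65% of all genes higher and 6.83% lower. Their median log2 difference was 0.05, against -0.02 over all genes. The lists were chosen with earlier results of these data known, so these counts are a description.

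Of the Runx genes, Runx1 had no probe with its symbol alone in the annotation used here, and Runx3 differed by -0.07. Cbfb, the partner subunit that stabilises Runx proteins on DNA, read 5172 and 5580 units on wild-type arrays and 10370 and 12122 on null arrays. Its log2 difference was 1.06 (SE 0.19, limma adjusted p = 0.113), with 1.00 and 1.12 in the lots, and it was the 1 gene of the 35 that was at least 2-fold higher in both lots (3.26% of all genes).

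Hes1, a repressor gene induced by Notch, read 1019 and 1090 units in wild type and 1903 and 2320 in null arrays, a log2 difference of 1.00 (limma adjusted p = 0.130). Hes5 read 482 and 1097 against 2205 and 1850 units, with differences of 2.19 in lot 1 and 0.75 in lot 2. Both had null arrays above all wild-type arrays, 2 of the 6 tested genes of this list against 22.6% of all genes, while Hes7, Heyl and Helt had differences of -0.77, -0.64 and -0.53 with overlapping arrays and Hes2 one of 0.05. The median of the 6 tested Hes and Hey genes was -0.24, and it was 0.52 without null array 2, so the list had no settled direction.

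Lef1, the TCF-family factor of lymphoid precursors, read 895 and 541 units in wild type and 1403 and 1245 in null arrays (log2 difference 0.93, limma adjusted p = 0.275). Of the other 7 tested genes of this list, Bcl9, a beta-catenin cofactor gene, had a difference of 0.90 (1.44 and 0.37 in the lots) and Ctbp2 one of 0.33. Tcf7l1 had one of 0.04, Ctnnb1, the beta-catenin gene, one of -0.24, and Ctbp1, which encodes another corepressor, one of -0.29. The list's median was 0.12, and -0.09 with the brightest 25% of probes. Axin2, a widely used target of Wnt signalling, read 126 to 185 units on the 4 arrays, inside the Y-linked probe range.

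Hhex, a homeodomain repressor gene of blood progenitors, read 6862 and 5168 units in wild type and 12710 and 11196 in null arrays (log2 difference 1.00, limma adjusted p = 0.160). Of the other homeodomain, paired and forkhead genes, 3 were in the brighter 50%: Nkx6-1 (0.95), Six3 (-0.12) and En1 (-0.62). Pax5, the B lineage factor that recruits Tle4, read 203 to 322 units on the 4 arrays, inside the Y-linked probe range.

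The cofactors lay near 0. Hdac1, Hdac2 and Hdac3, the deacetylase genes, had log2 differences of 0.10, 0.10 and -0.22, Sin3a one of 0.02 and Csnk2a1, a subunit gene of casein kinase 2, one of -0.10. Rnf6, a ubiquitin ligase gene, had the largest of the 9 tested, 0.46 (17940 and 17929 against 24527 and 24923 units, limma adjusted p = 0.296). The median of the 9 was 0.09, and -0.03 without wild-type array 2.

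Of the ETO complex, Gps2 (-0.42), Cbfa2t2 (-0.27), Tbl1xr1 (-0.24) and Tbl1x (-0.17) were negative and Cbfa2t3 positive (0.24), with 0 of 5 past an unadjusted p under 0.05 by limma, against 16.5% of all genes. The list's median was -0.24, and 0.003 without null array 1.

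The oocyte partners of Tle6 were mostly dim or without a probe here. Of 7 genes of the subcortical maternal complex, 5 had a probe, and 4 of these (Nlrp5, Padi6, Nlrp2 and Nlrp4f) were below the brighter 50% and read 53.4 to 529 units. Zbed3, the remaining one, read 20697 and 24193 units in wild type and 31005 and 29150 in null arrays, a log2 difference of 0.43 (limma adjusted p = 0.381). Of 5 oocyte markers with a probe, Zp3, Zp2, Gdf9 and Nlrp5 were below the brighter 50%, at 88.1 to 387 units. Bmp15, the remaining one, read 568 and 391 units in wild type and 751 and 491 in null arrays. The wild-type signals of Tle6 (510 and 417) lay inside the range of these Bmp15 signals.

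**Figure D5:**
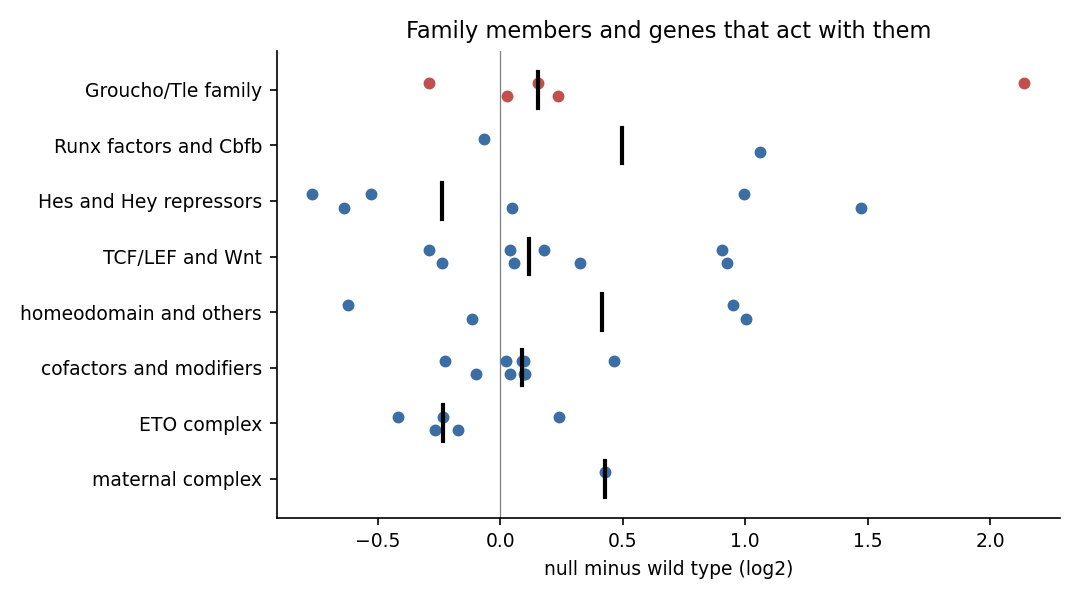
Log2 difference of null minus wild type for the 5 members (red) and for tested genes of 7 lists that act with them or belong to related complexes (blue), with the median of each as a black bar. Tle6 (2.14) lies beyond every listed partner, of which Hes5 (1.47) and Cbfb (1.06) are the highest.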

How the data were processed

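RNA of lineage-negative marrow was measured on 4 arrays. The deposited values are linear probe intensity, in signal units, for 33012 probes; sorted values of the 4 arrays differ by at most 11.1 units, so the authors' values were already quantile normalized. The sources used here do not name the scanner software or background correction. Probes were named from the platform annotation (14411 with 1 symbol, 247 with several, 18354 with none), and 14402 were found in RefSeq GRCm38.p6, with 0 symbols changed.

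Signals under the 1st percentile (75.8 units) were raised to it before the log2 step. Only the brighter 50% of probes, ranked by mean log2, were kept, with 1 probe per gene, that of highest mean signal. Limma 3.58.1 (R 4.3.3, lmFit and eBayes, 2 residual and 2.11 prior degrees of freedom), checked on simulated data, was fitted with genotype alone, and p-values were Benjamini-Hochberg adjusted over 8445 genes. Figures used matplotlib 3.10.9.

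Replicate numbers are the array lots, per the series text, so they pair the arrays; same-numbered arrays deviated together (r = 0.50 across 8445 genes, which are not independent replicates). Members, gene lists and tests were chosen with earlier results of these data known. Named were all members, the 3 highest and 3 lowest tested genes per partner list with Runx1, Hes1, Lef1, Tcf7, Pax5, Hdac1 and Cbfa2t3 (Tcf7 had no probe with its symbol alone), the protein-coding genes up to 5 either side of Tle6, and its 5 most alike genes. Some further list members were named after their values were seen. There were 12 cell type lists, whose counts are given in the text.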

Additional observations from a re-analysis of the deposited data

How the results depend on the processing

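Over the alternatives tried, the log2 difference of Tle6 ran from 1.99 to 2.28, the range with an array left out, and its adjusted p from 0.0436 to 0.412. Only the variance trend took it past the threshold, at an unaltered difference of 2.14, and gave 1 member past it instead of 0. Tle3 ran from 0.03 to 0.28 and Tle4 from 0.08 to 0.39 and kept their sign. Tle2 (-1.61 to 1.03) and Tle5 (-0.30 to 0.36) changed sign with an array left out, and with no other alternative. The 10 genes past the threshold became 0 with the lot as a replicate block (2055 at an unadjusted p under 0.05 by limma), 0 without the filter on dim probes (1514), 0 with any array left out (678 to 1438; the lone array was assumed to vary like the other group), 291 with the brightest 25% of probes and 295 with the variance trend. The replicate block changed no call of a member. Tle2, Tle3 and Tle6 were not in the brightest 25%. Of 91 medians of partner lists under an alternative, 18 moved by more than the spread between lots and 8 changed sign; the causes were not tested. With 2 arrays per genotype and no detection calls, signals near the Y-linked range set no reliable fold.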

Other observations

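Some genes beside Tle3 and Tle4, picked after their values were seen, differed more than these members. Gna14, a G protein alpha subunit gene 4 protein-coding genes from Tle4, read 6315 and 6607 signal units on wild-type arrays and 1691 and 1731 on null arrays (log2 difference -1.92, limma adjusted p = 0.0744). The arrays of the genotypes did not overlap. Uaca, next to Tle3, read 446 and 357 units in wild type and 1137 and 912 in null arrays (1.35, limma adjusted p = 0.108). Of 3 tested neighbours of Tle4 and 4 of Tle3, limma gave 0 an adjusted p under 0.05, against 0.118% of all genes, and 2, Gna14 and Uaca, had an unadjusted p under 0.05, against 16.5%.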
